A study of Homo sapiens with 9 samples.

Results

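The ephrin, Eph receptor, semaphorin, plexin and neuropilin genes were described in U87 cells, an established human glioma line, on 9 Affymetrix expression arrays. They were chosen by symbol alone: EPHA, EPHB, EFNA, EFNB or SEMA followed by a number, PLXN, NRP1 or NRP2. This gave 55 of the 19775 gene symbols on the array, measured by 139 probe sets: 8 ephrins, 13 Eph receptors, 20 semaphorins, 9 plexins, 2 neuropilins and 3 antisense transcripts named after Eph receptor genes. Cultures of 100000 cells were transfected with a lipid reagent and 50 nM of one miRNA duplex, which was miR-376a*A in 3 biological replicates, miR-376a*G in another 3, and the control miRNA in the last 3. RNA was taken 24 h later. In published work on this miRNA, form A is the unedited sequence and form G carries the base left by A-to-I editing. The labels do not say whether the replicates were separate cultures on separate days, and 1 cell line was used, so p-values measure the spread between these cultures only.

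A miRNA guides an Argonaute protein to messenger RNAs that pair with its seed, bases 2 to 8 from the 5′ end, and such transcripts are usually lowered. RefSeq lists the mature sequence once called miR-376a* as hsa-miR-376a-5p, at chr14:101040788-101040809 on the plus strand of GRCh38.p14. It is shown, with its seed in capitals, because both transfected forms carry its former name. The labels give no duplex sequences, so the base that differs between the forms is not marked.
hsa-miR-376a-5p: gUAGAUUCuccuucuaugagua

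Ephrins are membrane-anchored ligands of the Eph receptor tyrosine kinases, and contact between cells that carry them sends signals into both, which usually alters adhesion and repulsion. Semaphorins are secreted or membrane-bound ligands of plexins, and most secreted class 3 semaphorins need a neuropilin as co-receptor. Plexins act on RAS-family GTPases through an intracellular GTPase-activating domain, and both systems steer growing axons, blood vessels and migrating glioma cells.

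The labelled line was checked against its markers first. Of 10 mesenchymal and glial markers, 8 lay above the filter on dim probe sets described next, with VIM at 2009 to 2611 and CD44 at 1821 to 2199 over the 9 arrays. The astrocyte markers GFAP and S100B stayed at or under 2.43 and 1.67. Of the immune, endothelial and epithelial markers on the array 1 of 4, 2 of 4 and 2 of 5 lay above the filter, and 4 of 5 neuronal and 3 of 3 oligodendrocyte markers did. The summed signal of the 4 endothelial markers moved with the groups, at 114 to 134 with miR-376a*A, 94.5 to 101.1 with miR-376a*G and 64.7 to 73.1 in the control. PECAM1 averaged 82.7, 43.6 and 44.3 in that order and TEK 32.4, 45.5 and 18.4, while VWF (3.38, 3.25 and 4.04) and CDH5 (6.61, 4.93 and 2.6) were dim. The neuronal sum was 2597 to 2725 with miR-376a*A, 2277 to 2347 with miR-376a*G and 2123 to 2355 in the control. SNAP25 averaged 728, 406 and 302 in that order, and TUBB3 1793, 1841 and 1775. SYT1 (126, 58.3 and 123) and RBFOX3 (14.7, 8.77 and 14.2) were lowest with miR-376a*G, and STMN2 was dim (3.88, 3.32 and 2.94). The immune sum was 36.0 to 38.9, 18.1 to 34.4 and 29.8 to 33.0. The part of these markers in the results was not tested. Each array had been scaled to the same trimmed mean signal, 100.009 to 100.011, so these values give a gene's share of the RNA. Fewer cells expressing a gene and less of its RNA per cell cannot be told apart.

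Of the 55 genes 35 could be tested, because their brightest probe set had a mean of at least 11.3 signal units, the 40th percentile of all probe sets on the log2(signal + 16) scale. Differences below are on that scale, which understates the change of dim genes. Folds below are these differences written as ratios, so they too are lower than the ratios of the printed signals, most of all for dim genes. A gene passed at a limma adjusted p under 0.05 over all 20068 features tested. Of these features 13697 were genes with a single symbol, and the rest were probe sets without a single symbol, each tested by itself. Shares of all features below include both kinds. The other 20 of the 55 genes were left out by the filter, and 15 of them stayed under 11.3 on every array. These 20 were the ephrins EFNA1, EFNA2 and EFNA3, the Eph receptors EPHA1, EPHA3, EPHA6, EPHA7, EPHA10, EPHB1 and EPHB3, and the plexins PLXNB1 and PLXNB3. The semaphorins SEMA3D, SEMA3E, SEMA3G, SEMA4G, SEMA6A and SEMA6C and the antisense transcripts EPHA1-AS1 and EPHA2-AS1 completed them. EPHB1 reached the highest single value among them, 25.4 on a miR-376a*A array.

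With miR-376a*A, 9 of the 35 tested genes passed against the control, 8 higher and 1 lower. That is 25.7%, against 20.8% of all features; 22.9% passed as higher, against 10.8%, and 2.86% as lower, against 10%. With miR-376a*G, 15 passed against the same control arrays, 7 higher and 8 lower, or 42.9%, against 24.9% of all features. There 20% passed as higher, against 11.8%, and 22.9% as lower, against 13.1%. When the forms were compared directly, 10 passed, 8 higher and 2 lower with miR-376a*A, or 28.6%, against 18.3% of all features. Here 22.9% passed as higher, against 10.4%, and 5.71% as lower, against 7.9%. The arrays of both groups lay apart in 13, 19 and 17 of the 35 genes in these comparisons (37.1%, 54.3% and 48.6%), against 36.7%, 38.3% and 42.2% of all features. The median difference over the 35 genes was 0.11, -0.08 and 0.17 (log2), and over all features 0.04, 0.00 and 0.03. In all, 17 genes passed at least 1 comparison and 18 passed none. The comparisons with the control share its 3 arrays, so their values stand side by side below and are not independent of each other.

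**Figure D1:**
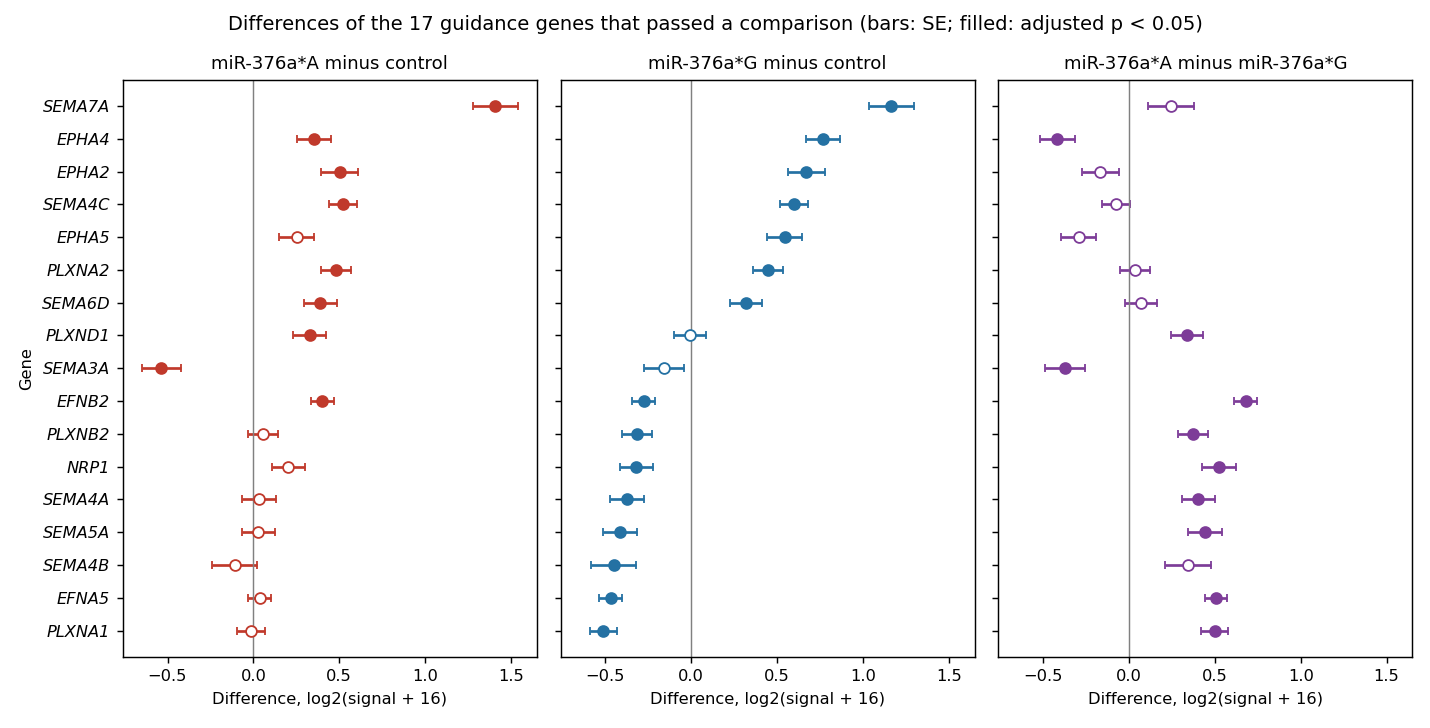
Differences on the log2(signal + 16) scale (horizontal axis) of the 17 genes that passed a comparison, for miR-376a*A minus control (left), miR-376a*G minus control (middle) and miR-376a*A minus miR-376a*G (right). Points are limma estimates, bars are SE, and filled points passed. SEMA7A lies farthest right in the left and middle panels, and EFNB2 is right of 0 in the left panel and left of it in the middle one.

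Among the ephrins, the transmembrane ligand gene EFNB2 rose with one form and fell with the other. Its brighter probe set read 1038, 997 and 940.3 on the miR-376a*A arrays, 592, 628 and 621 on the miR-376a*G arrays, and 803, 724 and 716 on the control arrays. No array of any group overlapped another group, with the control arrays in the middle. EFNB2 stood 1.32-fold above the control with miR-376a*A (0.40 ± 0.067, SE, adjusted p = 0.00104) and 1.21-fold lower with miR-376a*G (-0.28 ± 0.067, SE, adjusted p = 0.00874). For miR-376a*A minus miR-376a*G the difference was 0.68 ± 0.067 (SE, adjusted p = 1.47e-05). The second probe set gave 0.27 and -0.56 against the control and 0.83 between the forms, and each passed. These 3 calls held under all 16 alternatives tried for each, with adjusted p up to 0.0398. The probe set mean gave -0.42 for the fall.

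The 250 bases before the annotated start of EFNB2 are shown because it was the gene that moved in opposite directions. They lie at chr13:106535663-106535912 on the minus strand of GRCh38.p14, from the RefSeq promoter table. Capitals mark every match, on either strand, to the letters of 5 short motifs. Those of a TATA box were TATAAA, and a CCAAT box is spelled as it is named. A cAMP response element was TGACGTCA. The GC box searched for has the letters GGGCGG or, read on the other strand, their complement. For an AP-1 site the letters searched, again on either strand, were TGACTCA.
EFNB2: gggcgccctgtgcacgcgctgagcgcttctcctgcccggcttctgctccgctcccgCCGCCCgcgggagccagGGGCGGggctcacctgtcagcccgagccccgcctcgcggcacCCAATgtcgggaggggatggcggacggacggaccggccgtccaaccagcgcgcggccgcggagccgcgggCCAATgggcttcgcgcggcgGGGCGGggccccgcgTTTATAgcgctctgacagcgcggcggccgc
This window held 3 GC boxes, 2 CCAAT boxes and, 30 bases before the start on the opposite strand, the TATA letters. Among the 51 windows of 31 tested genes with a promoter in that table, EFNB2 alone held the TATA letters, which 10.7% of all 35116 windows of that length hold. Here and below, all windows include those of genes that were not tested, so the shares are not a comparison with other tested genes. The motifs were chosen after the sequences and the expression values were seen. A match is a run of letters and no sign of binding.

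EFNA5, a ligand held to the membrane by a lipid anchor, fell with miR-376a*G. Its brightest probe set read 256, 260.2 and 252 with miR-376a*A, 177, 181 and 169 with miR-376a*G, and 260.2, 246 and 242 in the control. The 3 miR-376a*G arrays lay below all 6 others, while the miR-376a*A and control arrays overlapped. The gene was 1.39-fold below the control with miR-376a*G (-0.47 ± 0.066, SE, adjusted p = 0.000242) and 1.42-fold higher with miR-376a*A than with miR-376a*G (0.51 ± 0.066, SE, adjusted p = 0.000168). With miR-376a*A it stood at 0.04 ± 0.066 (SE) against the control. Its other 2 tested probe sets fell with miR-376a*G as well, by 0.57 and 0.65 on the log2 scale. The dimmest of the 3 also fell by 0.38 with miR-376a*A, where the brightest did not pass. EFNA4, EFNB1 and EFNB3 passed no comparison, and EFNB3, measured by an _x_at probe set that can bind related transcripts, averaged 64.2 ± 1.26, 55.6 ± 3.84 and 57.6 ± 1.96 (SD, n = 3) with miR-376a*A, miR-376a*G and the control.

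**Figure D2:**
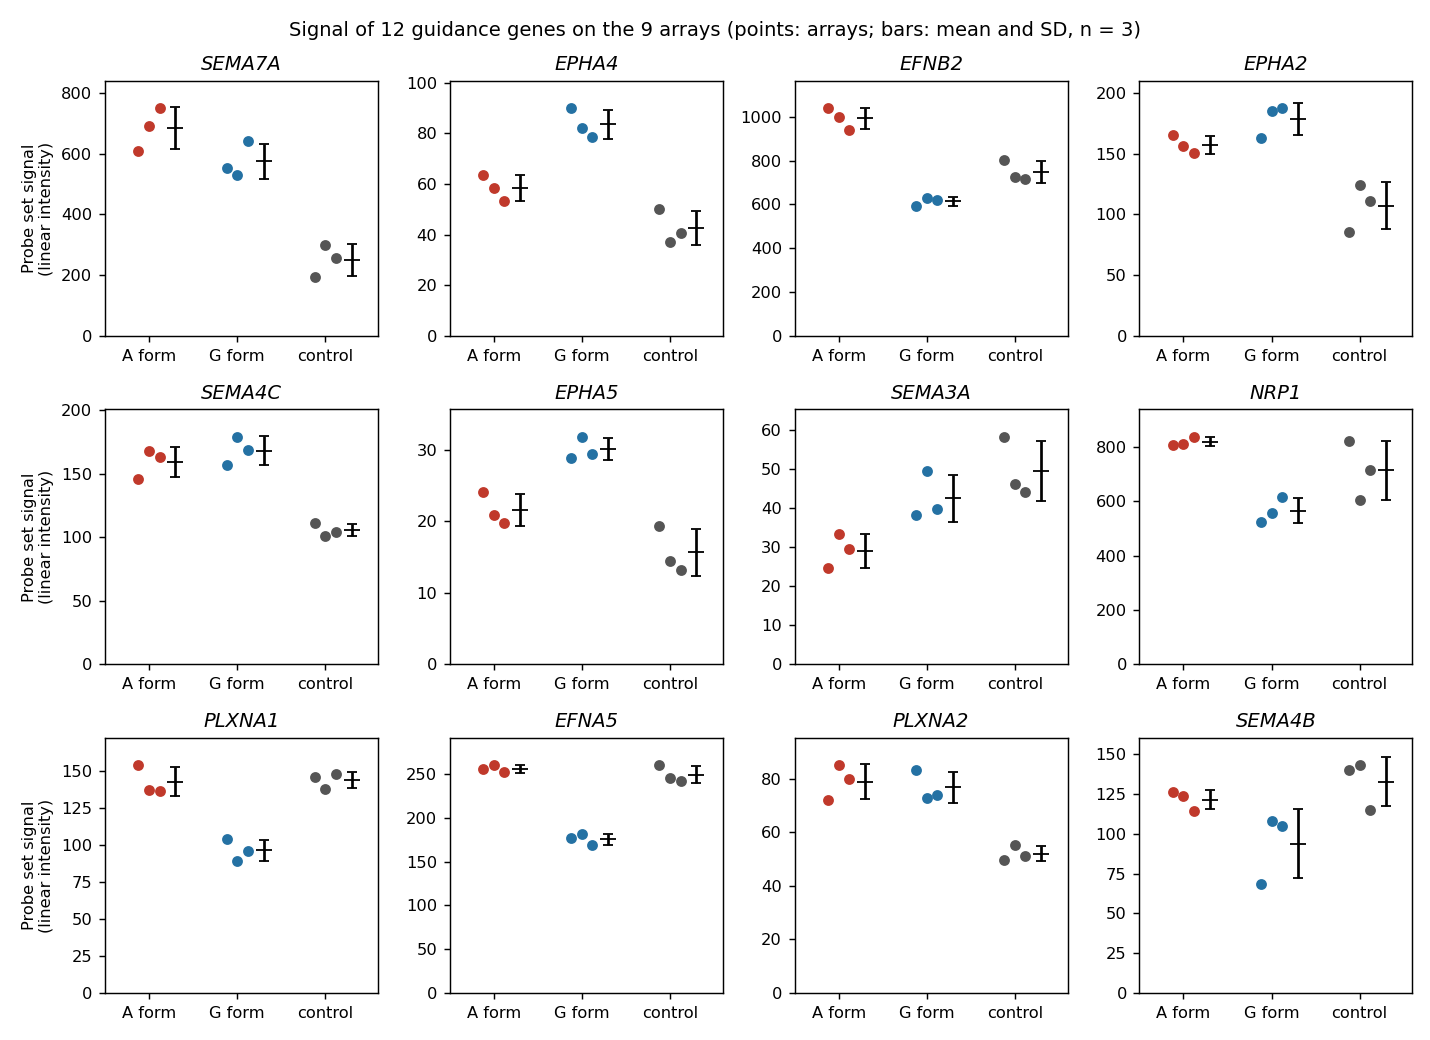
Signal (linear intensity, vertical axes from 0) of the 12 genes with the largest differences on each array, with miR-376a*A at left, then miR-376a*G, then the control (axis labels A form, G form and control). Points are arrays, and bars beside them give the mean and SD of 3 arrays. In SEMA7A, EPHA2, SEMA4C and PLXNA2 the control arrays lie below those of both forms, and in EFNA5 and PLXNA1 the miR-376a*G arrays lie below the rest.

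Of the 6 tested Eph receptors, 2 rose with miR-376a*A and 3 with miR-376a*G, and 0 fell with either. Of all features 10.8% and 11.8% passed as higher and 10% and 13.1% as lower in these comparisons. EPHA4, a receptor that binds ephrins of both classes, read 63.8, 58.5 and 53.5 with miR-376a*A, 89.9, 82.2 and 78.6 with miR-376a*G, and 50.1, 37.2 and 40.6 in the control. The 3 groups did not overlap. EPHA4 was 1.7-fold above the control with miR-376a*G (0.77 ± 0.100, SE, adjusted p = 0.000126), and 3 of 3 other tested probe sets shared that sign, 2 of them passing. With miR-376a*A it was 1.28-fold higher (0.35 ± 0.100, SE, adjusted p = 0.0254). It lost that call when miR-376a*A replicate 1 or 2, or one of control replicates 2 and 3, was left out (0.28 to 0.35, adjusted p between 0.0676 and 0.0981), with no filter, in a fit of those 2 groups alone, and for the mean of its probe sets (0.20, adjusted p = 0.101). Directly compared, EPHA4 was 1.34-fold lower with miR-376a*A than with miR-376a*G (-0.42 ± 0.100, SE, adjusted p = 0.0114), and without miR-376a*A replicate 3 that adjusted p was 0.0532.

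EPHA2, an Eph receptor widely studied in glioblastoma, rose with each form. Its single tested probe set read 165, 156 and 150.2 with miR-376a*A, 163, 185 and 187 with miR-376a*G, and 85.9, 124 and 111 in the control. All 6 miR-376a* arrays lay above the 3 control arrays, which were themselves uneven. The rise was 1.42-fold with miR-376a*A (0.50 ± 0.108, SE, adjusted p = 0.00555) and 1.59-fold with miR-376a*G (0.67 ± 0.108, SE, adjusted p = 0.000663). EPHA2 passed under all 16 alternatives in both comparisons. No difference between the forms was shown, with an estimate of -0.17 for miR-376a*A minus miR-376a*G and a 95% interval of -0.40 to 0.07. The bases before its start, chr1:16156070-16156319 on the minus strand of GRCh38.p14, are given because they hold the 8 letters of a cAMP response element, marked in capitals with a GC box as above.
EPHA2: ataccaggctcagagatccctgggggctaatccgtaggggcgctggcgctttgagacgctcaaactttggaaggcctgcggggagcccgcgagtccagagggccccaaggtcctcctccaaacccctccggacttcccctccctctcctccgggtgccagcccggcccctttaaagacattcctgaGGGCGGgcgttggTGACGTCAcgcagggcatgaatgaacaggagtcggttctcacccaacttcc
That element begins 51 bases before the start. The letters occurred in 3 of the 51 windows of tested genes (EPHA2, SEMA3B and SEMA4C), or 5.88%, against 1.65% of all windows. SEMA3B, one of the 3, passed no comparison.

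EPHA5, a receptor of A-class ephrins best known from the nervous system, was dim. Its single tested probe set read 24.2, 20.9 and 19.8 with miR-376a*A, 28.9, 31.8 and 29.5 with miR-376a*G, and 19.4, 14.4 and 13.2 in the control. Each miR-376a*G array exceeded every other array. The rise with miR-376a*G was 1.46-fold (0.54 ± 0.103, SE, adjusted p = 0.00197). It was 0.91 with an offset of 1 in place of 16 and 0.24 with an offset of 64, and it passed with both. With miR-376a*A the difference was 0.25 ± 0.103 (SE, adjusted p = 0.105), which passed without control replicate 1 (0.33, adjusted p = 0.0372). Between the forms EPHA5 stood at -0.29 (adjusted p = 0.0675), and it passed there after median centring, after quantile normalization, without the intensity trend and without the control arrays, with adjusted p between 0.0283 and 0.0432. EPHA8, EPHB4 and EPHB6 passed no comparison. The antisense transcript EPHA5-AS1 passed none either, although its miR-376a*A arrays lay apart from its miR-376a*G arrays.

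Among the semaphorins, SEMA7A, a lipid-anchored member that binds plexin C1 and integrins, showed the largest difference of all 35 genes. Its brighter probe set read 610, 692 and 749 with miR-376a*A, 553, 530 and 641 with miR-376a*G, and 194, 299.6 and 258 in the control. The lowest miR-376a* array stood well above the highest control array, and the arrays of the forms overlapped. SEMA7A was 2.66-fold higher with miR-376a*A (1.41 ± 0.131, SE, adjusted p = 1.02e-05) and 2.24-fold higher with miR-376a*G (1.17 ± 0.131, SE, adjusted p = 3.92e-05). Its second tested probe set was far dimmer, with means of 39.6, 23.0 and 25.7. It rose by only 0.41 with miR-376a*A (adjusted p = 0.00783) and stood at -0.09 with miR-376a*G (adjusted p = 0.512). The rise with miR-376a*G therefore rests on 1 probe set. The mean of both gave 0.91 and 0.54, and with that mean the forms differed by 0.38 (adjusted p = 0.00972), while the brighter one alone gave 0.24 with a 95% interval of -0.04 to 0.53. SEMA7A has 2 annotated starts in the promoter table. The window of the first listed, chr15:74433959-74434208 on the minus strand of GRCh38.p14, is given for the gene of largest change, and it held 3 GC boxes and none of the other letters searched.
SEMA7A: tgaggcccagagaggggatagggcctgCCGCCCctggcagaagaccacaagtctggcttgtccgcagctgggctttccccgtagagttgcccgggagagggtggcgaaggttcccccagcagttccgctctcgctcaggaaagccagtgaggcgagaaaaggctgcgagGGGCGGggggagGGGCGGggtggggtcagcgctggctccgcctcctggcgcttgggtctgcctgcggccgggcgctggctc
GC box letters were present in 37 of the 51 windows of tested genes, or 72.5%, against 42.6% of all windows, of tested and untested genes alike. AP-1 letters were in 0 of the 51 windows, against 4.2% of all windows.

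SEMA4C, a transmembrane ligand of plexin B2, rose with each form on both of its tested probe sets. The brighter one read 146, 168 and 164 with miR-376a*A, 157, 179 and 169 with miR-376a*G, and 111, 102 and 104 in the control. The 3 control arrays lay below the other 6. The rise was 1.44-fold with miR-376a*A (0.52 ± 0.081, SE, adjusted p = 0.000602) and 1.51-fold with miR-376a*G (0.60 ± 0.081, SE, adjusted p = 0.000171), and the dimmer probe set gave 0.43 and 0.42. All 16 alternatives kept both calls. The interval of miR-376a*A minus miR-376a*G was -0.25 to 0.10 around -0.07, so no difference between the forms was shown. Its upstream window, chr2:96870081-96870330 on the minus strand of GRCh38.p14, is shown because it also held the cAMP response element letters, which begin 40 bases before the start.
SEMA4C: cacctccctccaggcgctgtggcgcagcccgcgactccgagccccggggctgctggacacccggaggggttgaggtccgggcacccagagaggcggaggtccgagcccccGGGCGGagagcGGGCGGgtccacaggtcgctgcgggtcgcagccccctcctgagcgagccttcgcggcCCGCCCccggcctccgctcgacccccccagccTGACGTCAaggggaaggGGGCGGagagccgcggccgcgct

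SEMA3A, a secreted semaphorin that repels axons through neuropilin 1, was the only one of the 35 genes to fall with miR-376a*A. Its single tested probe set read 24.5, 33.2 and 29.4 with miR-376a*A, 38.2, 49.4 and 39.8 with miR-376a*G, and 58.1, 46.0 and 44.0 in the control. The miR-376a*A arrays lay below all others, and the miR-376a*G and control arrays overlapped. The fall was 1.45-fold (-0.54 ± 0.116, SE, adjusted p = 0.00579) and passed under all 16 alternatives. SEMA3A stood at -0.16 ± 0.116 (SE) with miR-376a*G against the control. Against miR-376a*G, SEMA3A with miR-376a*A was 0.38 lower on the log2 scale (-0.38 ± 0.116, SE, adjusted p = 0.0405). It lost this call when miR-376a*A replicate 1 or 3, or else miR-376a*G replicate 2 or 3, was dropped (adjusted p between 0.0753 and 0.166, values -0.29 to -0.41), with no filter (0.101) and with the replicate number as a block (0.0541).

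SEMA6D, a transmembrane semaphorin, rose with each form on its brighter probe set, by 0.39 with miR-376a*A (adjusted p = 0.0107) and 0.32 with miR-376a*G (adjusted p = 0.0251). Its signal averaged 60.7 ± 1.60, 57.2 ± 5.0 and 42.7 ± 5.76 (SD, n = 3) with miR-376a*A, miR-376a*G and the control. The other tested probe set gave -0.11 and -0.07, and neither call held for the mean of both (0.14 and 0.13). The call with miR-376a*G also ended without miR-376a*G replicate 2 (0.26, adjusted p = 0.112) or control replicate 2 (0.25, adjusted p = 0.0714), with no filter and in a fit of those 2 groups alone.

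SEMA4A, SEMA4B and SEMA5A, all membrane-bound, fell with miR-376a*G and did not pass with miR-376a*A. SEMA5A read 136, 141 and 124 with miR-376a*A, 78.8, 108 and 97.3 with miR-376a*G, and 134, 128 and 131 in the control, with no overlap between the miR-376a*G arrays and the rest. It was 1.33-fold below the control with miR-376a*G (-0.41 ± 0.098, SE, adjusted p = 0.00813) and 1.36-fold higher with miR-376a*A than with miR-376a*G (0.44 ± 0.098, SE, adjusted p = 0.00719). Both other tested probe sets fell with miR-376a*G too, by 0.40 and 0.54. SEMA4A and SEMA4B each had a single tested probe set. SEMA4A, a dim gene, averaged 27.2 ± 2.85, 16.6 ± 2.05 and 26.2 ± 2.40 (SD, n = 3) with miR-376a*A, miR-376a*G and the control. It fell by 0.37 with miR-376a*G (adjusted p = 0.0148) and was higher by 0.40 with miR-376a*A than with miR-376a*G (adjusted p = 0.0126). The first call ended without miR-376a*G replicate 3 (-0.33, adjusted p = 0.0618) or control replicate 3 (-0.33, adjusted p = 0.0542), and the second without miR-376a*A replicate 2 (0.35, adjusted p = 0.0618) or miR-376a*G replicate 3 (0.36, adjusted p = 0.058). SEMA4B read 126, 124 and 115 with miR-376a*A, 68.8, 108 and 105 with miR-376a*G, and 140.1, 143 and 115 in the control. Replicate 1 of miR-376a*G was the low array: the fall by 0.45 (adjusted p = 0.025) was -0.28 without it (adjusted p = 0.0813). It also ended without control replicate 1 (-0.42, adjusted p = 0.0589) or 2 (-0.40, adjusted p = 0.0644).

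SEMA3C, SEMA3F and SEMA4F had bright probe sets but passed no comparison. SEMA3C, a secreted semaphorin reported to sustain glioma stem cells, averaged 634 ± 37.2, 702 ± 12.9 and 713 ± 126 (SD, n = 3) with miR-376a*A, miR-376a*G and the control. Its control arrays ranged from 589 to 841, and without control replicate 2 it passed as lower with miR-376a*A (-0.28, adjusted p = 0.0278). SEMA3F stood at -0.24 with miR-376a*G against the control and passed without control replicate 3 (-0.32, adjusted p = 0.0463). SEMA4F, read like EFNB3 from an _x_at probe set, differed from the control by -0.10 and -0.14 with miR-376a*A and miR-376a*G. SEMA3B, SEMA4D, SEMA5B and SEMA6B, with group means between 11.4 and 39.2, passed none.

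Of the 7 tested plexins, 2 rose and 0 fell with miR-376a*A, and 1 rose and 2 fell with miR-376a*G. Of all features 10.8% rose and 10% fell with miR-376a*A, and 11.8% rose and 13.1% fell with miR-376a*G. PLXNA2, a receptor of class 6 semaphorins and partner of neuropilins, read 72.0, 85.1 and 79.9 with miR-376a*A, 83.5, 72.9 and 74.1 with miR-376a*G, and 49.8, 55.3 and 51.0 in the control. Every miR-376a* array exceeded every control array. PLXNA2 was 1.4-fold higher with miR-376a*A (0.48 ± 0.087, SE, adjusted p = 0.00184) and 1.36-fold higher with miR-376a*G (0.45 ± 0.087, SE, adjusted p = 0.00238). The difference between the forms was 0.03, with a 95% interval of -0.15 to 0.22. A second probe set rose by 0.51 with miR-376a*A but did not pass with miR-376a*G (0.14, adjusted p = 0.269). On that probe set the forms did differ, by 0.36 (adjusted p = 0.0137). The dimmest averaged 14.6, 17.1 and 6.1 with miR-376a*A, miR-376a*G and the control, so it passed the filter through the arrays where it was high and is not counted here. All 16 alternatives kept both calls.

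PLXNA1, its close relative, fell with miR-376a*G alone among the comparisons with the control. It read 154, 138 and 137 with miR-376a*A, 104, 89.4 and 96.0 with miR-376a*G, and 146, 138 and 148 in the control. The miR-376a*G arrays lay below the other 6. PLXNA1 was 1.43-fold below the control with miR-376a*G (-0.51 ± 0.080, SE, adjusted p = 0.000539) and 1.41-fold higher with miR-376a*A than with miR-376a*G (0.50 ± 0.080, SE, adjusted p = 0.00085). Both calls held under all alternatives, but the other tested probe set gave -0.05 and 0.05, and the mean of both gave -0.28 and 0.28. A test of PLXNA1 against PLXNA2 was not made, since signals of different probe sets are not on a common scale.

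PLXNB2, the receptor of SEMA4C, averaged 329 ± 22.2, 252 ± 32.2 and 316 ± 7.92 (SD, n = 3) with miR-376a*A, miR-376a*G and the control. On this single tested probe set it fell by 0.32 with miR-376a*G (adjusted p = 0.0182) and was higher by 0.37 with miR-376a*A than with miR-376a*G (adjusted p = 0.01). The fall ended without miR-376a*G replicate 2 (-0.27, adjusted p = 0.09) or 3 (-0.27, adjusted p = 0.0818). The difference between the forms lost its call without miR-376a*A replicate 3 (0.33, adjusted p = 0.0514) or miR-376a*G replicate 2 (0.32, adjusted p = 0.058) or 3 (0.33, adjusted p = 0.0546). PLXND1, a receptor of class 3 semaphorins in blood vessels, averaged 58.8 ± 6.98, 43.1 ± 3.89 and 43.4 ± 1.85 (SD, n = 3). It rose by 0.33 with miR-376a*A (adjusted p = 0.0265), stood at -0.01 with miR-376a*G, and was higher by 0.34 with miR-376a*A than with miR-376a*G (adjusted p = 0.0256). Without miR-376a*A replicate 2 both PLXND1 calls ended, at 0.25 and 0.26 (adjusted p = 0.122 each). The rise also ended without control replicate 3 (0.31, adjusted p = 0.0735), and the difference between the forms without miR-376a*G replicate 1 (0.28, adjusted p = 0.0911) or 2 (0.35, adjusted p = 0.0612), after median centring and for the mean of its probe sets. With no filter both ended. PLXNA3, PLXNA4 and PLXNC1, a receptor of SEMA7A, passed none.

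NRP1, the neuropilin that SEMA3A binds, differed between the forms. It read 807, 813 and 838 with miR-376a*A, 526, 558 and 615 with miR-376a*G, and 824, 605 and 715 in the control. The forms lay apart, while the control arrays spread across both. NRP1 was 1.44-fold higher with miR-376a*A than with miR-376a*G (0.52 ± 0.097, SE, adjusted p = 0.00227), a call kept under all 16 alternatives at 0.29 to 0.58. Only 1 of its 3 other tested probe sets passed between the forms, at 0.48, and it was dim, averaging 7.84 with miR-376a*G. The second brightest gave 0.13 (adjusted p = 0.326) and the remaining one 0.01. With miR-376a*G NRP1 was 0.32 lower than in the control on the log2 scale (-0.32 ± 0.097, SE, adjusted p = 0.0293), but 0 of 3 other tested probe sets passed. That call ended under 8 of 16 alternatives, among them leaving out miR-376a*G replicate 1 or 2, or else one of control replicates 1 and 3 (-0.21 to -0.31, adjusted p between 0.0613 and 0.111). With miR-376a*A against the control it stood at 0.20, and passed without control replicate 1 (0.31, adjusted p = 0.0132). NRP2, measured by 11 probe sets, passed no comparison on its brightest, which averaged 168 ± 3.92, 140.2 ± 7.20 and 172 ± 28.8 (SD, n = 3). It stood at -0.26 with miR-376a*G against the control (adjusted p = 0.0719) and passed without control replicate 3 (-0.34, adjusted p = 0.0309). Its difference between the forms, 0.23, passed when the control arrays were left out (adjusted p = 0.014).

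**Figure D3:**
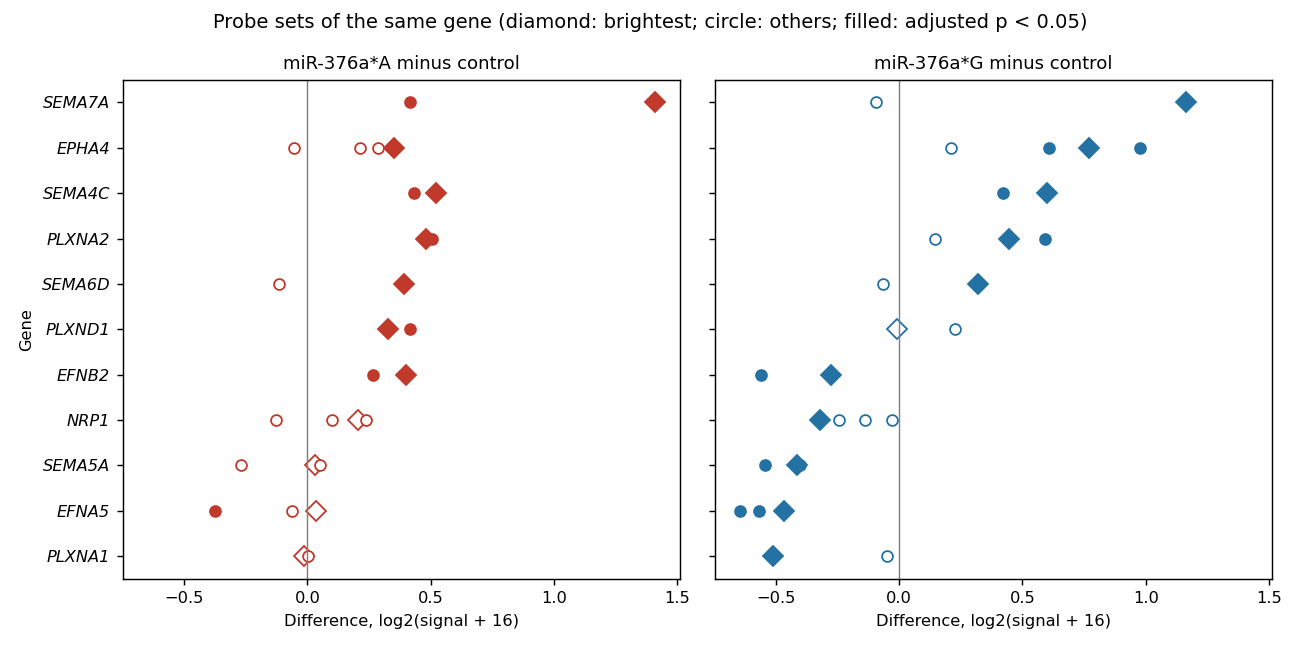
Differences from the control (log2(signal + 16), horizontal axis) of each tested probe set of the genes that passed a comparison and have more than 1, for miR-376a*A (left) and miR-376a*G (right). Diamonds are the brightest probe sets, circles the others, and filled symbols passed. The dimmest PLXNA2 probe set, which passed the filter only through the arrays where it was high, is drawn as well. Both EFNB2 symbols lie right of 0 with miR-376a*A and left of 0 with miR-376a*G, while those of SEMA7A and SEMA6D lie apart in both panels and those of PLXNA1 with miR-376a*G.

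The 18 genes that passed nowhere ranged from -0.15 to 0.28 with miR-376a*A, from -0.26 to 0.20 with miR-376a*G and from -0.15 to 0.29 between the forms. Of these 18 genes 1, 3 and 2 had an unadjusted limma p under 0.05. The genes were taken because they did not pass, which keeps such counts low, so nothing is concluded from them.

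The genes through which these ligands and receptors act were read from 4 lists of 107 symbols, 88 of them tested. With miR-376a*A 8 of the 88 rose and 7 fell, with miR-376a*G 4 rose and 14 fell, and between the forms 16 were higher and 8 lower with miR-376a*A. With each array centred on its own median the splits were 6 and 9 with miR-376a*A and 11 and 9 between the forms. The shares as first counted, 17%, 20.5% and 27.3%, compare with 20.8%, 24.9% and 18.3% of all features. Counts of the 88 changed when arrays were dropped. Without miR-376a*A replicate 1 or 2, or else control replicate 3, 9 passed with miR-376a*A. Between the forms 13 to 15 passed when a single miR-376a*A array, or else miR-376a*G replicate 2 or 3, was dropped. Calls over all features in these refits are not given here, so whether the 88 moved more than those was not tested.

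Among 24 tested Eph and ephrin effectors, 1 rose and 5 fell with miR-376a*A, 0 rose and 4 fell with miR-376a*G, and 4 were higher and 4 lower between the forms. These were 25%, 16.7% and 33.3% of the list, against 20.8%, 24.9% and 18.3% of all features. ITSN2, an endocytic scaffold and exchange factor, fell by 0.74 with miR-376a*A (180 ± 2.35, 346 ± 18.8 and 312 ± 24.3, SD, n = 3, for miR-376a*A, miR-376a*G and the control, adjusted p = 1.9e-05). This was an _x_at probe set, which can bind related transcripts, and the other tested probe set of ITSN2 gave -0.03. TIAM1, a RAC exchange factor, fell by 0.69 with miR-376a*A (adjusted p = 0.000458) and by 0.37 with miR-376a*G (adjusted p = 0.0184), while its other probe set stood at -0.24 and -0.17 and passed neither. The second of these calls ended without miR-376a*G replicate 1 (-0.35, adjusted p = 0.061) or 2 (-0.35, adjusted p = 0.0674). CRKL, an adaptor protein gene, fell by 0.55 with miR-376a*G (adjusted p = 0.000188), and its other probe set fell by 0.29.

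Among 23 tested partners and effectors of semaphorins and plexins, 2 rose and 2 fell with miR-376a*A, 1 rose and 3 fell with miR-376a*G, and 4 were higher and 1 lower between the forms. These were 17.4%, 17.4% and 21.7% of the list, against 20.8%, 24.9% and 18.3% of all features. DPYSL3, a collapsin response mediator that acts in semaphorin signalling, averaged 430.1 ± 16.9, 84.7 ± 12.4 and 457 ± 37.2 (SD, n = 3) with miR-376a*A, miR-376a*G and the control. Its fall of -2.24 ± 0.093 (SE, adjusted p = 1.08e-08) with miR-376a*G was the largest in the 4 lists, and a second probe set fell by 0.95. ITGB1, an integrin subunit that SEMA7A can bind, fell by 0.36 with miR-376a*G (adjusted p = 0.000701), and its 3 other probe sets fell by 0.45 to 0.93. RND3, an atypical small GTPase that binds plexins, fell by 0.47 with miR-376a*A (adjusted p = 0.000414) and stood at 0.01 with miR-376a*G.

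Of 22 tested small GTPases and cytoskeletal effectors, 2 rose and 0 fell with miR-376a*A, 2 rose and 6 fell with miR-376a*G, and 5 were higher and 3 lower between the forms. These were 9.09%, 36.4% and 36.4% of the list, against 20.8%, 24.9% and 18.3% of all features. The kinase gene ROCK1 averaged 800.1 ± 41.4, 798 ± 15.3 and 531 ± 60.4 (SD, n = 3), a rise of 0.58 with each form (adjusted p = 0.000218 and 0.000181), and a second probe set gave 0.60 and 0.59. ARHGAP5, a GTPase-activating protein gene, rose by 1.15 with miR-376a*G (adjusted p = 1.12e-05), where 2 of 3 other probe sets rose as well. Its rise of 0.69 with miR-376a*A was not shared by the other 3 (-0.32 to 0.03). LIMK2, a kinase that inhibits cofilin, fell by 0.54 with miR-376a*G (adjusted p = 0.000696), with its other tested probe sets at -0.39 and -0.01.

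Of 19 other tested guidance ligands and receptors, 3 rose and 0 fell with miR-376a*A, 1 rose and 1 fell with miR-376a*G, and 3 were higher and 0 lower between the forms. These were 15.8%, 10.5% and 15.8% of the list, against 20.8%, 24.9% and 18.3% of all features. RGMB, a ligand of neogenin and BMP co-receptor, averaged 535 ± 9.32, 502 ± 5.24 and 279 ± 23.1 (SD, n = 3) and rose by 0.91 with miR-376a*A and 0.82 with miR-376a*G. One of its 3 other probe sets rose with both forms, 1 with miR-376a*G only by 0.76, and 1 with neither. NTNG1, a membrane-anchored netrin, fell by 0.63 with miR-376a*G (adjusted p = 9.91e-05), and its other probe set fell by 0.83. ROBO1, a receptor of SLIT proteins, rose by 0.40 with miR-376a*A (adjusted p = 0.00458) and stood at -0.01 with miR-376a*G, and between the forms it differed by 0.41 (adjusted p = 0.00404).

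**Figure D4:**
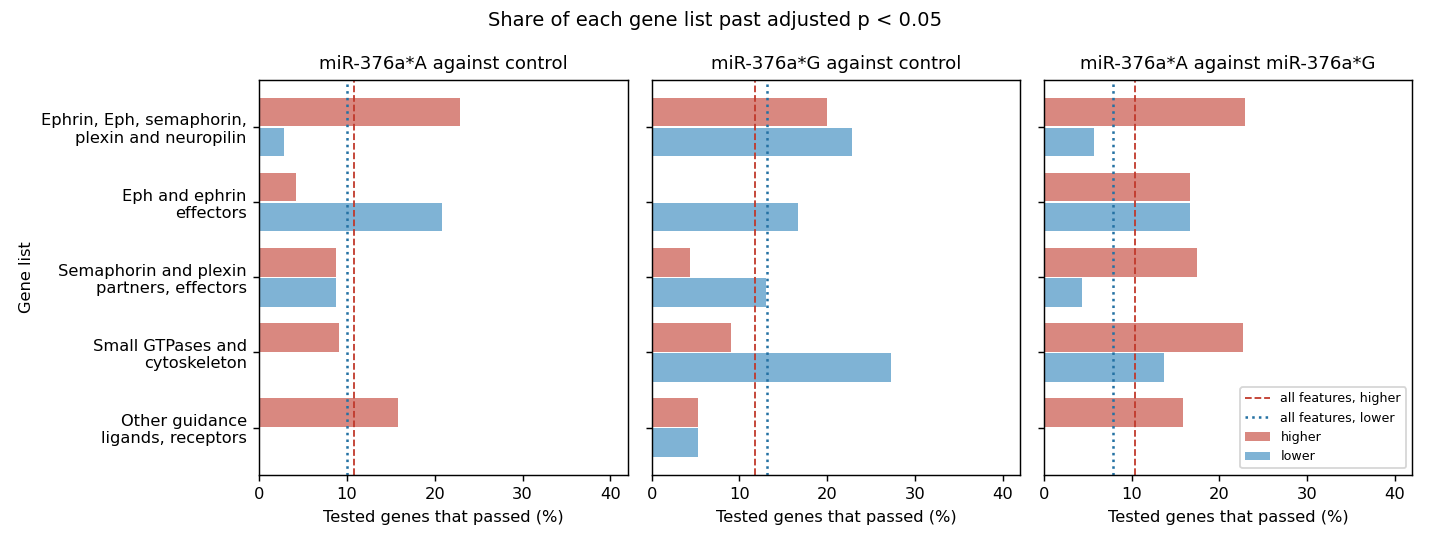
Percent of the tested genes of each list (rows) that passed as higher (red bars) or lower (blue bars) in each comparison (panels), with the percent of all 20068 features that passed as higher (dashed line) or lower (dotted line). The ephrin, Eph, semaphorin, plexin and neuropilin genes passed as higher in 22.9% with miR-376a*A, against 10.8% of all features, and as lower in 2.86%, against 10%.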

How the data were processed

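The authors deposited linear probe set intensity values for 54675 probe sets on 9 arrays. Per the submitters' processing notes, the software was GCOS 1.4.0.036, whose settings no label describes. No pair of arrays was identical. Members, lists and tests were chosen with earlier results of these data known. After 62 array controls were left out, log2(signal + 16) was taken with no further scaling. The 32768 probe sets at or above the 40th percentile of the mean were kept, and each gene with a single symbol was represented by its brightest. Probe sets without a single symbol stood alone, so 20068 features were tested, 13697 of them genes. Gene names are those of the platform annotation, and all 55 genes matched RefSeq by Entrez identifier.

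Differences were fitted with limma 3.58.1 (R 4.3.3) on all 9 arrays with an intensity trend, with 6 residual and 6.48 prior degrees of freedom, two-sided, with Benjamini-Hochberg adjustment over all features. The test was also run on simulated data with independent normal noise and far fewer changed features than were called here. That setting cannot show how the test behaves on these arrays. Every gene that passed was named, the 12 with the largest differences by array, then 5 bright genes that passed nowhere and up to 3 genes per list. Alternatives covered scaling, offset, filter, probe sets, variance model, arrays in the fit, the replicate block and each array left out. Python 3.11.15, pandas 2.3.3 and matplotlib 3.10.9 made sequences and figures.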

Additional observations from a re-analysis of the deposited data

Results flagged for a closer look

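EFNB2 received opposite calls from the 2 forms: it passed as higher with miR-376a*A and as lower with miR-376a*G against the control, and the direct comparison of miR-376a*A with miR-376a*G passed at 0.68 (log2). Both tested probe sets showed it. The comparisons with the control share its 3 arrays, and the direct comparison uses the control only for the estimate of the spread.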

How the results depend on the processing

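The counts of ephrin, Eph, semaphorin, plexin and neuropilin genes that passed stayed within 1.5 times the reported count in every alternative: with each array left out in turn they were 7 to 11 for miR-376a*A, 12 to 15 for miR-376a*G and 7 to 9 between the forms. The counts over the 88 effector and other guidance genes were less even, at 9 to 19, 15 to 26 and 13 to 16 in the same refits. With no filter on dim probe sets 9 of them passed for miR-376a*A, where 3354 of all features passed in place of 4177. Calls over all features in the refits without an array are not given here. Whether either set of genes moved more than all features was not tested. Of 541 alternative values for the 34 calls of named genes of these families, 490 kept direction and threshold, 51 lost the threshold and 0 reversed, and 21 calls held throughout. Centring each array on its own median changed the split over all features: with miR-376a*A 1659 were higher and 2353 lower, in place of 2164 and 2013. With miR-376a*G they were 2594 and 2309, in place of 2374 and 2619, and between the forms 1509 and 2217, in place of 2086 and 1585. The 35 genes then gave 8 and 1, 7 and 8, and 7 and 3. Without the control arrays 13 of the 35 passed between the forms, and so did 5472 of all features, in place of 3671. With an offset of 64 differences of dim genes shrank, for instance SEMA3A with miR-376a*A to -0.28 and SEMA4A with miR-376a*G to -0.16. Deviations of same-numbered arrays correlated between -0.11 and 0.07, and those of differently numbered arrays between -0.125 and 0.142. These values show no visible pairing by replicate number, and they cannot tell whether same-numbered cultures were handled together. With the replicate block 9, 15 and 9 of the 35 genes and 14, 21 and 20 of the 88 passed. Of all features 3840, 4714 and 3325 then passed, in place of 4177, 4993 and 3671. Signal over background limits what the 20 untested genes can show, and with 3 arrays a group small differences are not resolved.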
